A study of Mus musculus with 13 samples.

Results

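The skeletal myogenic transcription factors examined here were 9 genes, chosen by symbol and matched to their Ensembl identifiers: the myogenic regulatory factors Myod1, Myog, Myf5 and Myf6, the myocyte enhancer factor 2 genes Mef2a, Mef2c and Mef2d, the paired box gene Pax7 and the homeobox gene Six4. They were 9 of 16382 genes in the deposited tables, and 8 of them passed the filter on low counts that left 13142 genes for testing. RNA-seq was carried out on myotubes of C2C12, an established mouse myoblast line whose cells fuse into multinucleated tubes when serum is lowered. Wild-type cells were differentiated to day 8 and then received either DMSO vehicle (CON) or 10 μM palmitoylethanolamide (PEA), an endogenous fatty acid amide, for 24 h. There were 6 libraries per treatment, from duplicate wells in 3 repeats of the experiment. Which wells share a repeat is not stated, so the p-values below measure the spread between libraries, some of which share a repeat. The cultures also hold myoblasts that did not fuse, and in bulk RNA fewer cells of a type and less RNA per cell cannot be told apart.

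The myogenic regulatory factors are basic helix-loop-helix proteins that bind the E-box as heterodimers with the widely expressed E proteins. MyoD and Myf5 commit cells to the muscle lineage, myogenin drives terminal differentiation and fusion, and MRF4 (Myf6) is best known from maturing fibres. MEF2 proteins are MADS-box factors that act with the myogenic regulatory factors on the genes of the contractile apparatus. Pax7 marks satellite cells, the stem cells of adult muscle, and Six4 and its relatives bind the MEF3 element, for instance in the promoter of Myog.

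Libraries held 12354845 to 50397444 estimated counts. CON replicate 1 was the deepest, at 2.25 times the next. The myotube markers Acta1, Actc1, Ckm, Des, Myh3 and Myog were detected in every library, with a summed normalized count between 99102 and 145437. A normalized count is the estimated count of a gene divided by 1 factor per library.

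On the mouse genome (GRCm39) the members lay on separate stretches of the chromosomes, apart from 1 pair. Myf5 (chr10:107318769-107321995) and Myf6 (chr10:107328712-107330656) were neighbours on the minus strand, 6716 bases apart. Myod1 lay at chr7:46025870-46028526 and Myog at chr1:134217707-134220287, both on the plus strand. The MEF2 genes were far longer: Mef2a spanned chr7:66880911-67022606 on the minus strand, Mef2c chr13:83652064-83815555 and Mef2d chr3:88049185-88079398 on the plus strand. Pax7 lay at chr4:139464373-139560839 and Six4 at chr12:73146383-73160230, both on the minus strand.

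The upstream sequences of 3 members are shown because these factors are known to regulate one another through sites of this kind: Myod1 and Myog as the most abundant bHLH members, and Mef2a as the member called below. Each is the 250 bases before the start of the canonical transcript on GRCm39, 5′ to 3′ on the gene's own strand, with matches to the E-box (CANNTG) or the MEF3 element (TCAGGTTTC, either strand) in capitals.
Myod1, chr7:46025620-46025869, plus strand: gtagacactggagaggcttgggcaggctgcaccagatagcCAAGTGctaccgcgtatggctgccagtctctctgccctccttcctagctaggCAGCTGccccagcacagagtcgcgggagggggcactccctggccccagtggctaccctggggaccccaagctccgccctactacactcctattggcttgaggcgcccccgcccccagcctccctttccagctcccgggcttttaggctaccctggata
Myog, chr1:134217457-134217706, plus strand: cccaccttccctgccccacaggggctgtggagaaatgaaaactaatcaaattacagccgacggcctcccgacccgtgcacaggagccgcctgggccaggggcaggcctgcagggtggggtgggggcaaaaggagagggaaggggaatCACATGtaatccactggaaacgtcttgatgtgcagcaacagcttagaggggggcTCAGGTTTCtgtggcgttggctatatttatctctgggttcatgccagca
Mef2a, chr7:67022607-67022856, minus strand: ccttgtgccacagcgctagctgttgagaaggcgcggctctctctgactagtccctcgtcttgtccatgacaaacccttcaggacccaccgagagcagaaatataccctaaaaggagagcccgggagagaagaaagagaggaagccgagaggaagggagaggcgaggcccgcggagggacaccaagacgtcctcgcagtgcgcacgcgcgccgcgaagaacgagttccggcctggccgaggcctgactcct

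In the Myod1 sequence the capitals mark CAAGTG starting at position -210 and CAGCTG at position -158, counted from the transcription start site. In Myog they mark CACATG at -103 and the MEF3 element at -49. The Mef2a sequence held no match within these 250 bases, but a match to the MEF2 site, CTAAAAATAG, began at -2 and ran past the start. When the window was extended by 50 bases into the transcript, 4 of the 9 members held an E-box (Myod1, Myog, Myf6 and Pax7), against 65.4% of 12144 protein-coding promoters of the same length. The CAGCTG form, which is contained in the E-box count, was found in Myod1 and Pax7 and in 14.0% of promoters. The MEF2 site was searched as YTAWWWWTAR, where Y is C or T, W is A or T and R is A or G. The stretch ctatatttat in the Myog sequence misses this pattern in its last base and was not counted. A full match was found in Myf6 and Mef2a and in 2.21% of promoters, and MEF3 in Myog and in 0.428%. These matches describe letters in a window and do not show binding.

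Per kilobase of exon, Myog was the most abundant of the 9 transcripts, with a median of 7429 normalized counts per kb over the 12 libraries (range 6001 to 9318). Myod1 followed with a median of 972 per kb (799 to 1159), and the ranges of the pair did not overlap. Mef2d (median 500 per kb, 465 to 597) and Mef2a (304 per kb, 254 to 399) came next. Myog was thus 7.65 times Myod1 at the median, while Myod1 was 1.94 times Mef2d.

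Myf5 stood at 240 per kb (177 to 277), overlapping Mef2a in range, although Mef2a was above Myf5 in all 12 libraries. Mef2c (52.2 per kb, 35.9 to 76.9) and Six4 (46.3 per kb, 40.1 to 57.4) overlapped in range, with Mef2c above Six4 in 8 of 12 libraries. Pax7 was low at 18.5 per kb (14.2 to 25.1), and Myf6 was lowest at 3.3 per kb (0 to 7.78). The place of Mef2a depended on the length used: per kb of the canonical transcript its median was 853 (713 to 1121), above Mef2d (702) and Myf5 (240), and its range overlapped that of Myod1 (800 to 1161). By the same length Mef2c had a median of 125 (86.3 to 185) and Six4 of 78.6 (68.0 to 97.3), further apart than per kb of exon, and their ranges still overlapped. The plot of levels per kb shows this order.

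**Figure D1:**
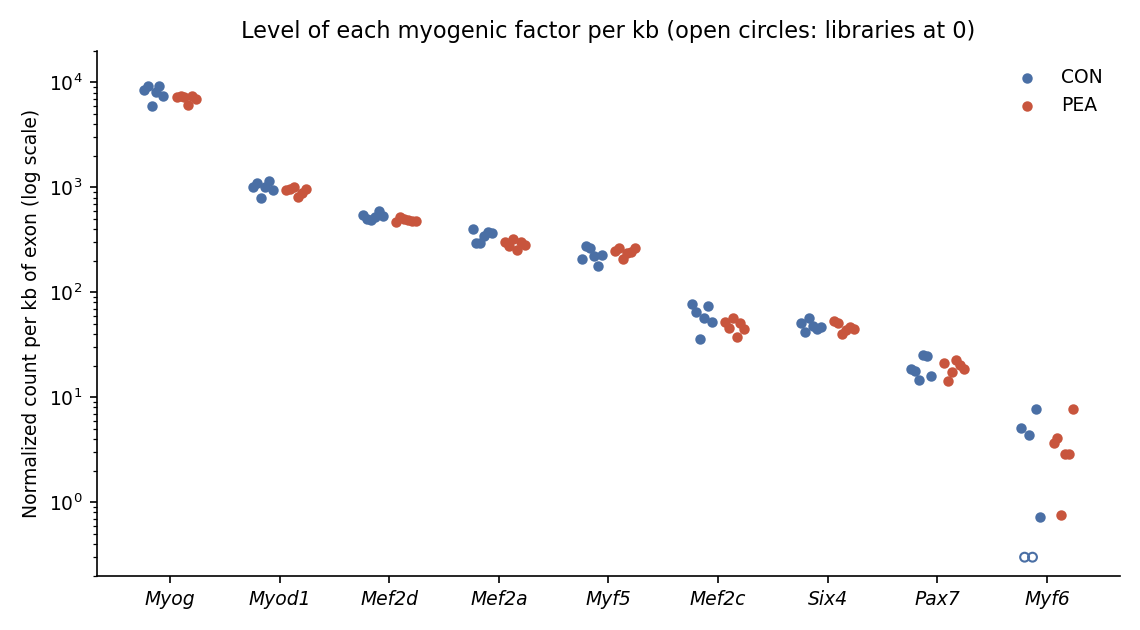
Normalized count per kb of exon (log axis) for each of the 9 factors, ordered by median, with 1 point per library (blue CON, red PEA, open circles for libraries at 0). Myog lies near 7429 per kb, Pax7 near 18.5 and Myf6 at or below 7.78, and the treatments lie close together for every gene on this scale.

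Among the 4 myogenic regulatory factors, Myog made up 86.64% ± 0.92 of the summed level per kb in CON and 85.67% ± 0.66 in PEA (SD, n = 6 each). Myod1 made up 10.80% ± 0.34 and 11.32% ± 0.56, and Myf5 2.53% ± 0.68 and 2.97% ± 0.32.

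The design compared PEA with CON in each gene. Of the 8 members tested, 1 was called at an adjusted p below 0.05, and it was lower in PEA, where 11.0% of all genes tested were called, 6.31% higher and 4.74% lower. The called gene was Mef2a. The log2 fold change was below 0 in 7 of the 8, with a median of -0.10, against a median of 0.01 over all genes tested. The groups overlapped in all 9 members, while 4.34% of genes tested showed no overlap. DESeq2, run as an alternative, also called 1 member, again Mef2a, and 14.5% of the genes to which it gave an adjusted p.

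Myod1, the lineage-determining factor, ranged from 1512 to 2193 normalized counts in CON, with a median of 1902, and from 1544 to 1910 in PEA, with a median of 1806. The groups overlapped: 3 CON libraries lay above the highest PEA library, and CON replicates 4 and 6 lay among the PEA values. CON replicate 3 was the lowest of all 12 libraries. The log2 fold change was -0.10 (SE 0.08, 95% CI -0.26 to 0.06, adjusted p = 0.416), and it ran from -0.16 without CON replicate 3 to -0.06 without CON replicate 5.

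Myog, the differentiation factor, read 12775, 14098, 9097, 12179, 14126 and 11293 normalized counts in CON replicates 1 to 6. In PEA replicates 1 to 6 it read 10988, 11284, 10998, 9240, 11240 and 10536. Every CON library except replicate 3 was above every PEA library, and replicate 3 was below all of them. The means were 12261 ± 1901 in CON and 10714 ± 770 in PEA (SD, n = 6 each), a log2 fold change of -0.19 (SE 0.09, 95% CI -0.38 to -0.01) that was not called (adjusted p = 0.164). Without CON replicate 3 it was -0.26 with an adjusted p of 0.0168, past the threshold, and leaving out any other library did not bring it there.

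Myf5, expressed in myoblasts and early in the lineage, was the one tested member with a positive estimate. It ranged from 368 to 577 in CON (median 469) and from 430 to 554 in PEA (median 508), and the PEA libraries lay within the range of CON. The log2 fold change of 0.09 (SE 0.10, 95% CI -0.11 to 0.29) was not called (adjusted p = 0.580), and it was 0.03 without CON replicate 5 and 0.15 without CON replicate 2.

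Myf6 was at the edge of detection, with 0 to 19 estimated counts in a library, and it did not pass the filter. Its normalized count ranged from 0 to 11.0 in CON, with a median of 3.59, and from 1.08 to 11.0 in PEA, with a median of 4.66. CON replicates 2 and 4 were at 0, where a count of 0 allows up to 3 counts, or 3.22 and 3.65 normalized counts (counting error only). An exact two-sided permutation test on log2(normalized count + 1) gave p = 0.364. At this depth no difference between treatments was detectable.

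**Figure D2:**
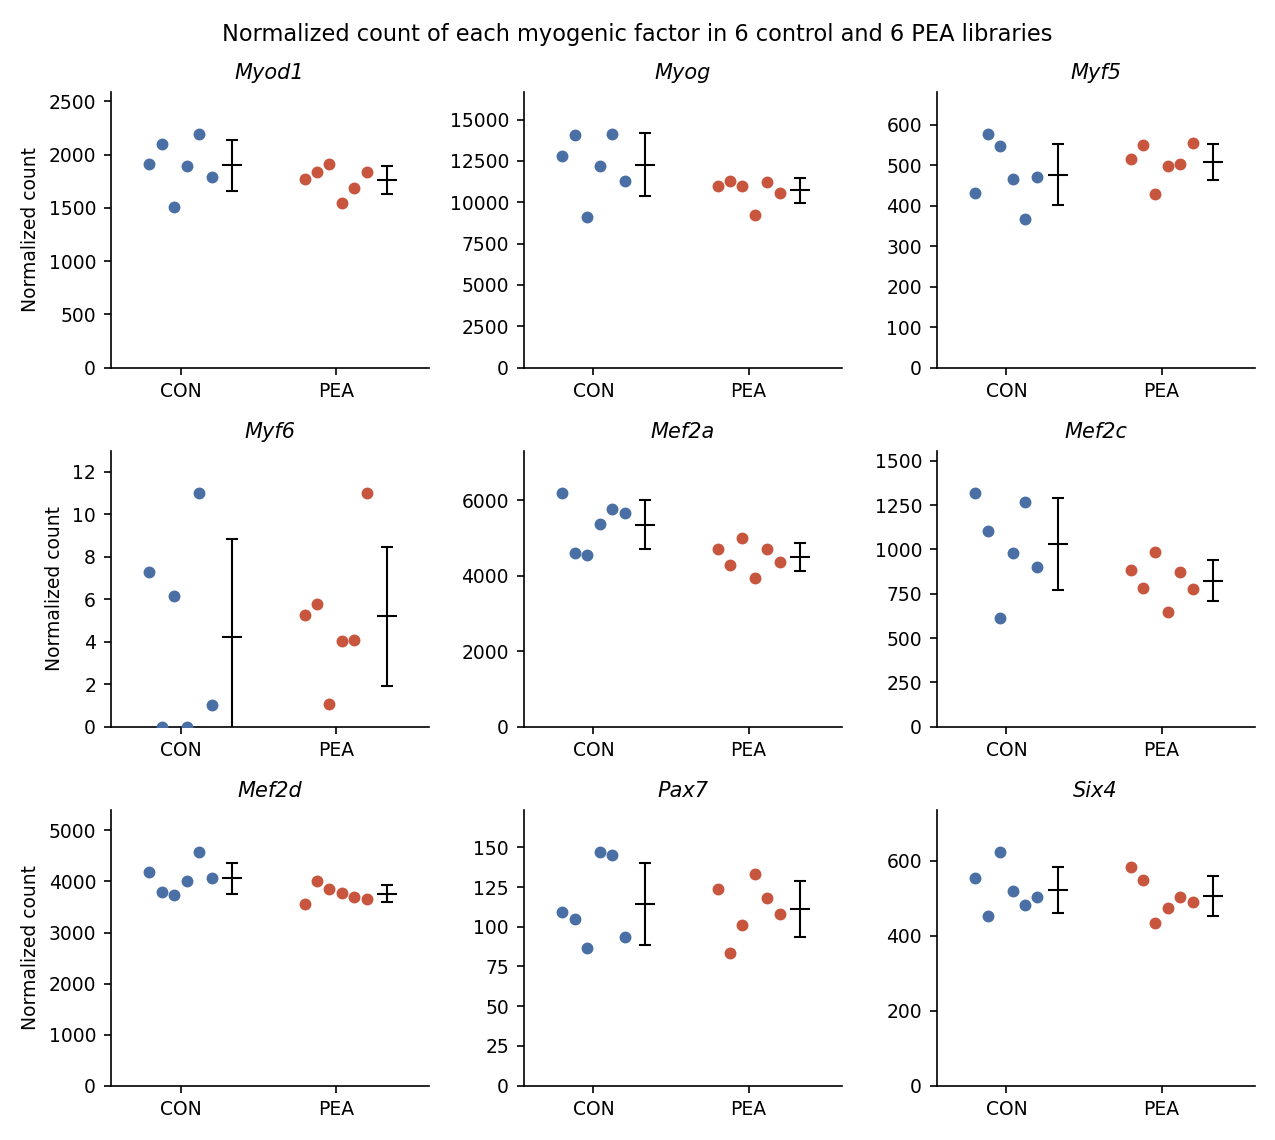
Normalized count of each factor (vertical axis, from 0, a scale per panel) in the 6 CON (blue) and 6 PEA (red) libraries, with mean ± SD in black beside each group, cut at 0 for Myf6. CON and PEA overlap in every panel. For Myog the overlap rests on CON replicate 3 at 9097, and for Mef2a 4 CON libraries lie above the highest PEA library.

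Mef2a fell in PEA. Its normalized counts in CON replicates 1 to 6 were 6188, 4600, 4544, 5368, 5759 and 5670, and in PEA replicates 1 to 6 they were 4714, 4271, 4989, 3933, 4703 and 4349. All 6 PEA libraries lay below the CON median of 5519, and 4 CON libraries lay above the highest PEA library. CON replicates 2 and 3 fell among the PEA values. The mean went from 5355 ± 661 to 4493 ± 380 (SD, n = 6 each), a log2 fold change of -0.25 (SE 0.08, 95% CI -0.41 to -0.09, adjusted p = 0.0441).

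This call sat close to the threshold. Leaving out 1 library at a time kept the log2 fold change between -0.29 and -0.20, but the gene was called in 3 of the 12 such fits (without CON replicate 2, CON replicate 3 or PEA replicate 3) and missed in the other 9 (without CON replicate 1, 4, 5 or 6 or PEA replicate 1, 2, 4, 5 or 6), with adjusted p-values up to 0.0968. Thinning all libraries to the smallest gave an adjusted p of 0.0508.

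Mef2c, a target of myogenin as well as its partner, had the largest estimate of the 8 tested members, and its coefficient of variation was 25.2% in CON and 14.2% in PEA. It ranged from 615 to 1318 in CON (median 1042) and from 645 to 986 in PEA (median 827). CON replicate 3 was again the lowest of all libraries, and 3 CON libraries lay above all PEA libraries. The log2 fold change was -0.32 (SE 0.14, 95% CI -0.63 to -0.02, adjusted p = 0.153). Without CON replicate 3 it became -0.44 with an adjusted p of 0.0161. The other 11 such fits ran from -0.38 to -0.23 and were not called, and the smallest estimate (-0.23, adjusted p = 0.318) was the one without CON replicate 1.

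Mef2d varied least between libraries, with a coefficient of variation of 7.52% in CON and 4.28% in PEA. It ranged from 3726 to 4576 in CON (median 4040) and from 3560 to 4017 in PEA (median 3729). The log2 fold change of -0.11 (SE 0.05, 95% CI -0.22 to 0.00) was not called (adjusted p = 0.184), and leaving out single libraries gave adjusted p-values of 0.105 to 0.374.

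Pax7, the satellite cell factor, was detected in every library with 72 to 284 estimated counts. It ranged from 86.4 to 147 normalized counts in CON (median 107) and from 83.4 to 133 in PEA (median 113). The log2 fold change was -0.02 with a wide interval (SE 0.16, 95% CI -0.35 to 0.31, adjusted p = 0.947), and its sign turned in 5 of 21 alternatives. Six4 ranged from 452 to 623 in CON (median 511) and from 435 to 584 in PEA (median 496), with a log2 fold change of -0.05 (SE 0.08, 95% CI -0.23 to 0.13, adjusted p = 0.760). For neither gene did the groups separate.

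**Figure D3:**
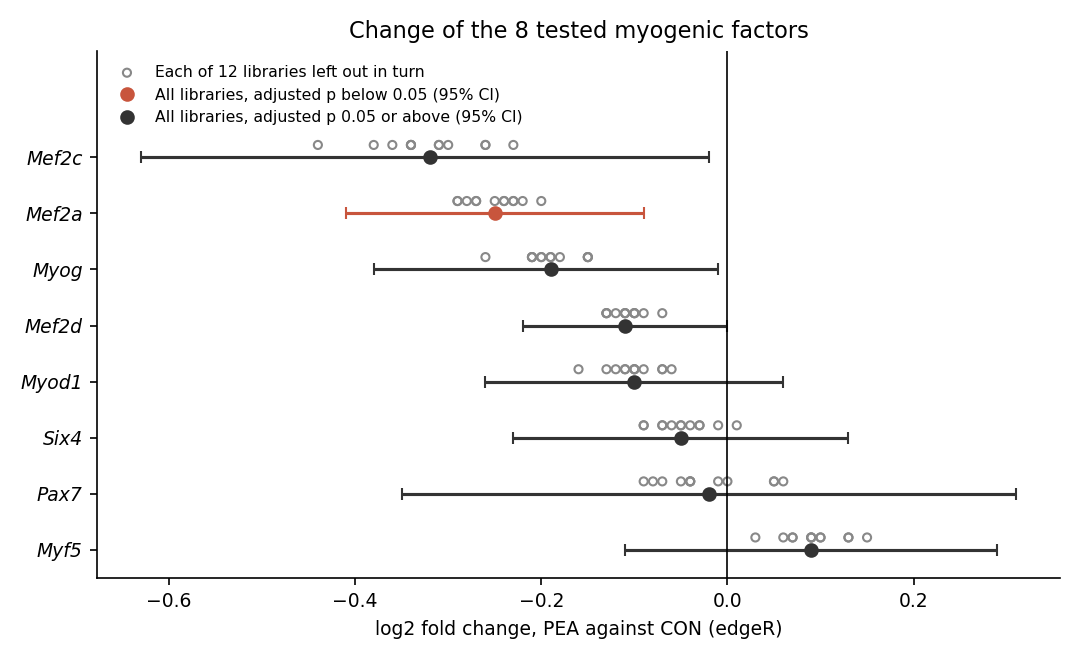
Log2 fold change of PEA against CON for the 8 tested factors (filled circles, bars for 95% CI, red for an adjusted p below 0.05), with the value after leaving out each library above it (open circles). Mef2a, at -0.25, is the one called gene, and the point at -0.44 for Mef2c is the fit without CON replicate 3.

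The libraries differed along the members. CON replicate 3 held the lowest CON value of 6 of the 8 tested members (Myod1, Myog, Mef2a, Mef2c, Mef2d and Pax7) and the highest of Six4. PEA replicate 4 held the lowest PEA value of Myod1, Myog, Mef2a and Mef2c and the highest of Pax7. CON replicate 5 held the highest CON value of Myod1, Myog and Mef2d and the lowest of Myf5. On the log2 scale Mef2c lay 0.54 above the mean of the 12 libraries in CON replicate 1 and -0.56 from it in CON replicate 3, while Mef2d stayed between -0.13 and 0.23. The summed level of the muscle genes described below was also lowest of its group in CON replicate 3 (245050 normalized counts, against a CON maximum of 357161) and in PEA replicate 4 (251401, against a PEA maximum of 283346). The part of this variation in the comparisons was not tested beyond leaving the libraries out.

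**Figure D4:**
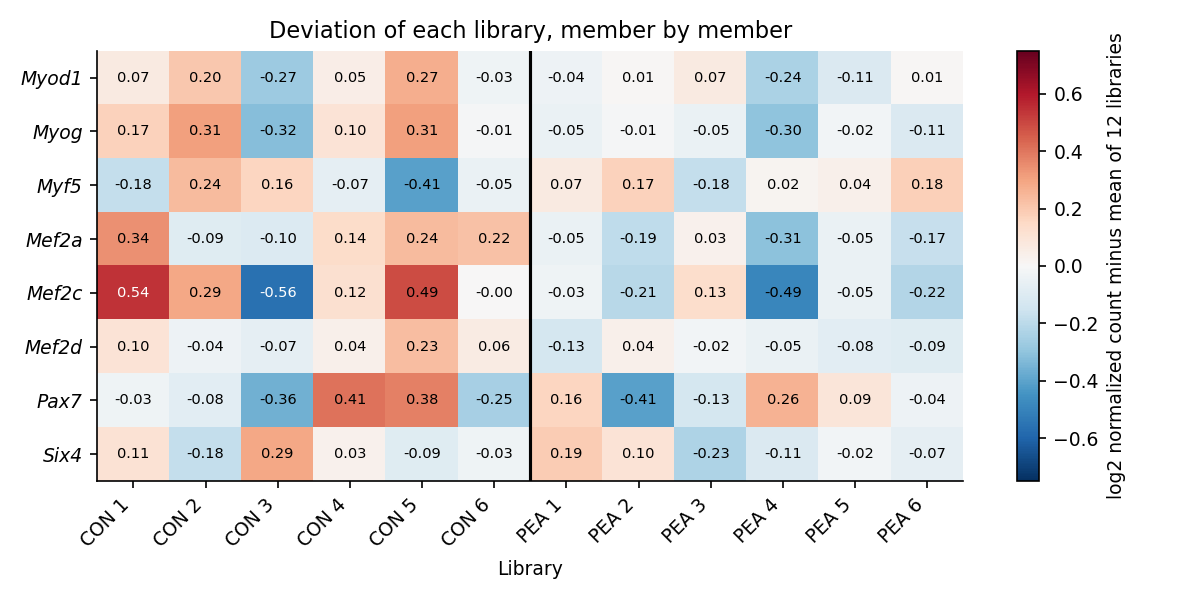
Log2 normalized count of each tested factor (rows) in each library (columns) minus the mean of the 12 libraries, from blue (lower) to red (higher), with the value printed. Mef2c runs from -0.56 in CON replicate 3 to 0.54 in CON replicate 1, and the columns of CON replicate 3 and PEA replicate 4 are low for Myod1, Myog, Mef2a and Mef2c.

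Ratios of estimated counts within a library do not depend on depth or scaling. Myog to Myod1 ranged from 6.02 to 6.73 in CON (median 6.44) and from 5.73 to 6.67 in PEA (median 6.06). Its mean log2 value was 2.69 ± 0.06 in CON and 2.60 ± 0.08 in PEA (SD, n = 6 each), a difference of -0.08 with p = 0.0758 in a two-sided exact permutation test (adjusted over 3 ratios, p = 0.227). CON replicate 3, the lowest library in both genes, also had the lowest CON ratio, 6.02. Without PEA replicate 5 the difference was -0.11 with an adjusted p of 0.0455 by the same exact test.

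Myf5 to Myod1 ranged from 0.168 to 0.362 in CON and from 0.225 to 0.322 in PEA. The log2 difference was 0.20 (exact permutation test, p = 0.271, adjusted p = 0.406). Mef2c to Mef2a ranged from 0.135 to 0.240 in CON and from 0.164 to 0.198 in PEA, with a log2 difference of -0.04 (exact permutation test, p = 0.751, adjusted p = 0.751). The PEA values of both ratios lay within the CON range. The smallest p that 924 assignments allow is 0.00216.

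Over the 12 libraries, with log2 CPM centred within each treatment, the genes whose pattern was most like Mef2a were Ctnna1 (Pearson r = 0.96), which encodes α-catenin, Dnajc13 (r = 0.93), an endosomal J-domain protein, and Sall2 (r = 0.92), a zinc finger factor. These are the highest of all genes tested and are given as a description. With PEA the log2 fold change was -0.07 for Ctnna1 (adjusted p = 0.349), -0.08 for Dnajc13 (adjusted p = 0.318) and 0.29 for Sall2 (adjusted p = 0.0355, lost without CON replicate 3 or 6 or PEA replicate 1, 2, 3, 5 or 6).

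The E proteins, obligate partners of the myogenic regulatory factors, were all tested. Of the 3, 1 fell (4.74% of all genes tested did) and none rose, with a median log2 fold change of -0.12. Tcf4 went from 4117 ± 280 normalized counts in CON to 3421 ± 226 in PEA, a log2 fold change of -0.26 (SE 0.05, adjusted p = 0.0069). Tcf12 (log2 fold change -0.12, adjusted p = 0.149) and Tcf3 (0.03, adjusted p = 0.682) were not called. The call of Tcf4 held in each of the 12 fits that left out 1 library, with adjusted p-values up to 0.0206, and without CON replicate 2 Tcf12 was called as well (adjusted p = 0.0224).

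Inhibitors and repressors of bHLH activity were called in both directions: 3 of 12 tested genes rose, 3 fell and 6 did not pass (11.0% of all genes tested were called), with a median log2 fold change of -0.11. Id3, which sequesters E proteins, fell from 1118 ± 178 to 842 ± 83.9, a log2 fold change of -0.40 (SE 0.10, adjusted p = 0.0141). Hes1, a Notch-responsive repressor, fell from 667 ± 72.9 to 512 ± 68.0 with no overlap between the groups (-0.38, SE 0.09, adjusted p = 0.0162). Bhlhe41, a bHLH repressor, fell from 1832 ± 117 to 1585 ± 80.2, also without overlap (-0.21, SE 0.05, adjusted p = 0.0172). Each of these 3 was called in all 12 fits with a library left out, with adjusted p-values up to 0.0369 for Id3, 0.0416 for Hes1 and 0.0431 for Bhlhe41.

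The 3 that rose were named after their values were seen. Msc (musculin or MyoR), which competes with MyoD for E proteins and E-boxes, rose from 51.8 ± 11.0 to 79.8 ± 4.27, by 0.62 on the log2 scale (adjusted p = 0.0204). Snai1 (0.26, adjusted p = 0.0183) and Snai2 (0.25, adjusted p = 0.0285) encode zinc finger repressors that bind a subset of E-boxes. Msc and Snai1 were called with each library left out, and Snai2 missed the threshold without CON replicate 3 or 6 or PEA replicate 5 or 6 (adjusted p up to 0.0773). Id1 (-0.10, adjusted p = 0.489) and Id2 (-0.39, adjusted p = 0.0734), also named afterwards, were not called.

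Of 13 other tested transcription factors of the muscle lineage, 1 rose and none fell, with a median log2 fold change of 0.04, a count near the background of 6.31% of all genes tested that rose. Eya4, a coactivator of Six4 and its relatives, went from 849 ± 93.6 to 1038 ± 82.4, a log2 fold change of 0.29 (SE 0.07, adjusted p = 0.0184), and stayed called with each library left out. Lbx1, a homeobox gene of migrating muscle precursors, had few counts (9.88 ± 3.31 in CON and 15.1 ± 3.63 in PEA, adjusted p = 0.174).

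Among 30 tested coregulators of MyoD and MEF2, 1 rose and none fell, with a median of -0.02, where 11.0% of all genes tested were called. A difference from this share was not tested. Nfatc3, a calcineurin-dependent partner of MEF2, had a log2 fold change of 0.20 (SE 0.06, adjusted p = 0.0435). The histone methyltransferase genes Suv39h1 (0.23, adjusted p = 0.0566) and Ezh2 (0.19, adjusted p = 0.0681) did not pass. For Suv39h1 the groups nonetheless did not overlap, at 598 to 803 normalized counts in CON and 822 to 931 in PEA. The call of Nfatc3 was lost in 8 of the 12 fits that left out a library (without CON replicate 3, 4, 5 or 6 or PEA replicate 2, 3, 4 or 6, adjusted p up to 0.102). The list then held no called gene, while 2 were called without CON replicate 1, one of them Suv39h1, and 4 without CON replicate 2, among them Suv39h1 and Ezh2.

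Genes known to be activated by MyoD, myogenin and MEF2 were called in 1 direction: 14 of 31 tested fell (4.74% of all genes tested did), none rose and 17 did not pass, with a median log2 fold change of -0.24. Earlier results on these data already showed lower contractile genes, so this count is not independent evidence of the direction. Tnni2, fast troponin I, fell from 8270 ± 780 to 5945 ± 485, a log2 fold change of -0.47 (SE 0.07, adjusted p = 5.3e-04). Pgam2, the muscle phosphoglycerate mutase, fell from 428 ± 97.1 to 251 ± 23.6 (-0.77, SE 0.12, adjusted p = 0.0016). Myl1, a fast myosin light chain, fell from 16002 ± 1771 to 12142 ± 821 (-0.40, SE 0.07, adjusted p = 0.00235). The count was 20 without CON replicate 3, and it was 8 without CON replicate 5, 9 without PEA replicate 4, 8 without PEA replicate 5 and 6 without PEA replicate 6.

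Satellite cell and quiescence markers gave 2 that rose and none that fell of 14 tested, with a median of 0.10, where 6.31% of all genes tested rose and 4.74% fell. Sdc3 (syndecan-3) went from 1177 ± 213 to 1710 ± 219, a log2 fold change of 0.54 (SE 0.11, adjusted p = 0.00575) and Cd34 from 1965 ± 175 to 2318 ± 112 (0.24, SE 0.06, adjusted p = 0.0135). Spry1, a feedback inhibitor of receptor tyrosine kinase signalling, had a log2 fold change of -0.21 (adjusted p = 0.0508) and was called, as lower, without CON replicate 3, CON replicate 4 or PEA replicate 3. The calls of Sdc3 and Cd34 held with each library left out, and the number of markers that rose was 3 without CON replicate 1, CON replicate 4 or PEA replicate 4 and 4 without CON replicate 2.

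Markers of cycling cells moved with the treatment: all 12 tested rose (11 without CON replicate 6, PEA replicate 2 or PEA replicate 6), where 6.31% of all genes tested rose. The median log2 fold change was 0.88, and their summed normalized count ran from 3384 to 8849 in CON and from 9041 to 11012 in PEA. Top2a, a topoisomerase of dividing cells, rose from 1145 ± 349 to 2203 ± 151, Kif11, a mitotic kinesin, from 261 ± 62.3 to 501 ± 73.4, and Ccna2, cyclin A2, from 667 ± 209 to 1281 ± 109. CON replicate 3 had the lowest sum of all libraries and CON replicate 2 the highest of CON. The part of cycling cells in the values of the myogenic factors and their lists was not tested.

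Of 15 tested markers of other cell types, 3 rose and none fell, where 6.31% of all genes tested were called higher. Of 6 tested fibroblast markers Dcn rose (log2 fold change 0.48, adjusted p = 0.0439), of 3 adipocyte markers Cebpa rose (0.43, adjusted p = 0.00868), and of 2 osteoblast and chondrocyte markers Sox9 rose (0.27, adjusted p = 0.0078). The call of Dcn was lost without CON replicate 1, 4, 5 or 6 or PEA replicate 2, 3, 4, 5 or 6 (adjusted p up to 0.0973). The fibroblast markers Lum (-0.77, adjusted p = 0.0851) and Pdgfra (0.25, adjusted p = 0.106), the adipocyte markers Fabp4 (-0.33, adjusted p = 0.547) and Pparg (0.15, adjusted p = 0.615) and the osteoblast factor Runx2 (0.15, adjusted p = 0.102) were not called. Pdgfra was called without CON replicate 4 and Runx2 without PEA replicate 4. Without CON replicate 2 the called fibroblast markers were 2, Dcn and Col1a1. Col1a1 and the next 4 genes were named after their values were seen. The adipocyte marker Plin1 (0 to 8.40 normalized counts), the osteoblast marker Sp7 (0 to 5.05), the cartilage collagen Col2a1 (0 to 7.35) and the leukocyte marker Ptprc (0 to 5.06) were at or near 0 in every library. The summed levels were 61446 to 79921 in CON and 60568 to 71154 in PEA for the 7 fibroblast markers, 474 to 694 and 645 to 725 for the 4 adipocyte markers, and 1714 to 2024 and 2112 to 2279 for the 5 osteoblast and chondrocyte markers. They were 25151 to 35704 and 24931 to 30075 for the 3 smooth muscle markers, 8.23 to 35.6 and 26.6 to 44.9 for the 5 endothelial markers, and 64.6 to 145 and 85.9 to 127 for the 4 macrophage markers, and none of the 2, 1 and 1 tested were called. Those tested were Acta2 (-0.12, adjusted p = 0.292) and Cnn1 (-0.20, adjusted p = 0.551), Vwf (0.85, adjusted p = 0.264) and Cd68 (-0.06, adjusted p = 0.875).

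**Figure D5:**
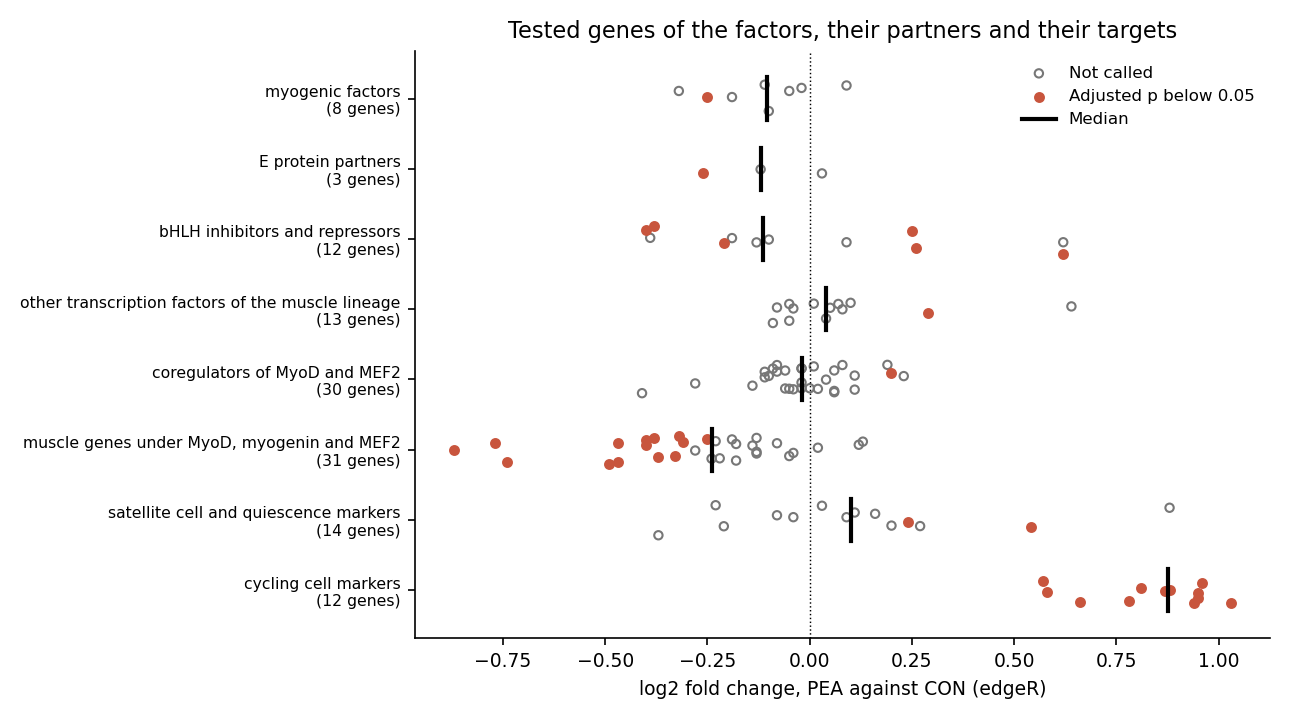
Log2 fold change of PEA against CON (horizontal axis) for the tested genes of each list (rows), with filled red circles for an adjusted p below 0.05, open circles for the rest and a black bar for the median. The factors centre on -0.10, the muscle genes on -0.24 with 14 of 31 called lower, and all 12 cycling cell markers lie on the right.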

How the data were processed

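RNA-seq of 12 libraries was analysed (6 CON, 6 PEA). Of 13 entries in the labels, the top-up run of PEA replicate 2 shares the values of the first run, and the pair counted as 1 library. The authors aligned reads to mm39 with STAR 4.4.1d and quantified Ensembl genes in Partek. They deposited estimated counts, of which those used here were rounded to whole numbers, and a normalized signal, the same counts divided by 1 DESeq2 factor per library. Both deposited tables hold 16382 genes, and genes with identifiers above the last one were not analysed here. The annotation gave symbols for 16343.

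The main test was edgeR 4.0.16 (quasi-likelihood) in R 4.3.3 after the default removal of genes with few counts, with TMM factors of 0.988 to 1.02, Benjamini-Hochberg adjustment over all 13142 genes tested and calls below 0.05. Alternatives used DESeq2 1.42.0 and limma 3.58.1. Ratios were compared by two-sided exact permutation tests, adjusted over 3. The fits were tested on simulated data. Promoters and lengths came from the GENCODE annotation of GRCm39, lengths as the union of exons.

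The text names the 9 members, the 3 genes of each list with the smallest p (all genes of lists with up to 5 tested), and the 3 genes most like each called member, with other names marked; 1 gene under this rule is not reported here. Members and lists were chosen with earlier results of these data known. Listed symbols with no matching column, such as Twist1 and Tnnc1, were not analysed here.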

Additional observations from a re-analysis of the deposited data

Results flagged for a closer look

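Dixon's test was applied to the normalized counts of the 9 members and to the 3 ratios within each treatment, 24 groups of 6 libraries in all, of which chance sets apart about 1 in 20 groups. It set apart 2 libraries. Myog in PEA replicate 4, at 9240 normalized counts, was below the other PEA libraries, which lay between 10536 and 11284. Without that library the log2 fold change of Myog was -0.15 and remained below the threshold for a call (adjusted p = 0.308). The ratio of Myf5 to Myod1 in PEA replicate 3, at 0.225, was below the other PEA libraries, and without it the log2 difference was 0.27 (adjusted p = 0.205, exact permutation test).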

How the results depend on the processing

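Mef2a kept its direction in all 21 alternatives and its call in 11 of them. Myod1, Myog, Mef2c and Mef2d stayed below 0 and Myf5 above 0 in every alternative, and Myog and Mef2c passed the threshold in 1 each, without CON replicate 3. The number of members called was 0 in libraries thinned to the smallest total, and 0 to 3 when single libraries were left out. It stayed at 1 under DESeq2, limma-voom, median-ratio size factors, no filter, at least 10 counts in every library, the deposited normalized counts with a pseudocount of 1 or 10 and the replicate block.

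The estimate of Pax7 turned to 0.02 with limma-voom, and with single libraries left out it ran from -0.09 to 0.06 (0.06 without CON replicate 4, 0.05 without CON replicate 5, 0.05 without PEA replicate 2 and 0.00 without PEA replicate 3). That of Six4 was 0.01 without CON replicate 3, in a range from -0.09 to 0.01. The ratio of Mef2c to Mef2a ran from -0.14 to 0.03, turning without CON replicate 2 (0.03) and CON replicate 5 (0.00). For Myog to Myod1 the range was -0.11 to -0.07, and for Myf5 to Myod1 0.09 to 0.31. The cause was not tested in any of these. The 5 lists of partners, inhibitors, factors, coregulators and targets held 23 called genes, 26 under DESeq2 and 13 to 27 with single libraries left out.

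The labels give both treatments the numbers 1 to 6. Same-numbered libraries did not deviate together (correlations of their deviations between -0.08 and 0.06, with no library closest to its own number). Whether the numbers pair the libraries cannot be decided this way, because small differences between repeats would leave no such correlation. With the replicate block, 1 member (Mef2a, adjusted p = 0.0368) and 24 list genes were called, and the ratio of Myog to Myod1 gave -0.08 (exact sign-flip test, adjusted p = 0.188). Depth limits Myf6, with at most 19 counts in a library. The SE of Pax7 was 0.16, and it was 0.16 in libraries thinned to the smallest total.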
